A study of Homo sapiens with 3 samples.

Results

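FAM21C, other subunits of the WASH complex, the trimer of retromer and the sorting nexin SNX27 were followed as transcripts in glioma cells whose IGF1 receptor can or cannot enter the nucleus. The members were chosen by name: FAM21C, KIAA1033, KIAA0196 and CCDC53 (today WASHC2C, WASHC4, WASHC5 and WASHC3), VPS35, VPS26A, VPS29 and SNX27. All 8 of 8 had a probe on the array, with 15 probes and 24 spots in all, out of 25006 genes and 58201 probes. U87 is a human glioblastoma cell line. Stable clones selected with geneticin carried either the GFP-IGF1R vector (U87WT 5) or its mutant GFP-IGF1R1025x-1100x-1120x (U87Mut 5), whose receptor lacks the lysines at which the small protein SUMO is attached and stays out of the nucleus. Each vector is represented by 1 clone, so the receptor and other differences between the clones cannot be told apart, and no empty-vector or parental cells were on these arrays. RNA of U87WT 5 (Cy5) and of U87Mut 5 (Cy3) was hybridised together on 3 arrays, 1 per condition, all on 1 slide: 24 h in medium without serum (FBS-free), 24 h with 50 nM IGF1, and 24 h with 50 nM IGF1 after preincubation with OSI906, an inhibitor of the IGF1 and insulin receptor kinases (0.5 μM by the sample title and 500 μM by its medium field). Each condition was hybridised a single time with the same dye for each clone, so the bias of a probe for a dye cannot be told apart from a difference between the clones.

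Retromer and the WASH complex act together on endosomes, the compartments in which internalised membrane proteins are either sent to lysosomes or recycled. Retromer (VPS35, VPS26 and VPS29) holds cargo in a coat, SNX27 brings cargo with PDZ-binding tails to it, and the long tail of FAM21C binds VPS35 and so recruits the WASH complex. The complex switches on Arp2/3, which builds branched actin on the endosome and helps carriers for the surface or the Golgi to form. In glioma cells, as in others, this route returns receptors, transporters and integrins to the surface.

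Of the member genes, 6 have a promoter in the RefSeq table (GRCh38.p14), which covers the 250 bases before and 50 bases after a gene start. The sequence CACGTG, which reads the same on both strands and is bound by factors of the MYC and TFEB type, was searched after the values of the members were known. It was found in the promoters of 2 of these genes, FAM21C and KIAA1033, and in 7.26% of the 35116 promoters of the table. Both windows are shown because they are the only ones among the members with a match, with CACGTG in capitals, and both genes lie on the plus strand.

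FAM21C (WASHC2C) promoter, chr10:45727016-45727315, plus strand: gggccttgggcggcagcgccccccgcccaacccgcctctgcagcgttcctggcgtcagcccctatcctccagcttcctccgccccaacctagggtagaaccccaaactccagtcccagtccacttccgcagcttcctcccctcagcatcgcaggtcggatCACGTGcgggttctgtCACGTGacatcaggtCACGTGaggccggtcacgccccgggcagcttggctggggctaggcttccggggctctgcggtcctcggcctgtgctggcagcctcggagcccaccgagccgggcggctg

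KIAA1033 (WASHC4) promoter, chr12:105107481-105107780, plus strand: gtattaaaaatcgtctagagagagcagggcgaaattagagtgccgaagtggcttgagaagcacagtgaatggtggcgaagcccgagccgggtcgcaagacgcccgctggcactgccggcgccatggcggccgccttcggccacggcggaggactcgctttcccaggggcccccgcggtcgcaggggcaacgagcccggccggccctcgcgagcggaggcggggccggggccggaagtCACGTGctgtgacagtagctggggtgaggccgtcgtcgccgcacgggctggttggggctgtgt

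The FAM21C window holds 3 copies, a number reached or passed in 0.0940% of the promoters. For 2 of them the match extends to TCACGTGA, which contains CACGTG and occurs in 0.980% of promoters. The KIAA1033 window holds 1 copy. FAM21C has a second promoter entry that overlaps the first and holds 0 copies, and those of CCDC53, VPS35, VPS29 and SNX27 also hold 0. These matches describe letters, and binding to them was not measured.

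The scanner software marked all 15 member probes as well above background for Cy5 and for Cy3 on each of the 3 arrays. It did so for 27680 probes in all, called bright probes below. The values are log2 ratios of U87WT over U87Mut after normalisation, so that a value of 0 is equal brightness and 1 is a doubling in U87WT. Over bright probes, the SD of 1 log2 ratio taken from the difference between the FBS-free and IGF1 with OSI906 arrays was 0.143. From the IGF1 array it was 0.175 against FBS-free and 0.177 against IGF1 with OSI906. These figures hold noise and response to treatment together. Repeated spots of the same probe on an array varied with an SD of 0.0519 to 0.0562. Saturated spots numbered 0, and on a single array 50.1% to 52.8% of probes had that mark for both dyes. The glioma markers VIM, CD44, NES and CHI3L1 were bright, as were IGF1R, PTPRC and EPCAM, while GFAP (glia) and PECAM1 (endothelium) were not well above background throughout. The mark does not mean a high level. PTPRC (leukocytes) lay at log2 levels of 6.09 to 6.35 over both clones, close to GFAP at 5.80 to 5.93. EPCAM (epithelium) lay at 6.55 to 7.15 and NES at 6.66 to 7.32, while VIM lay at 14.87 to 16.07. The IGF1R probe gave 0.07, 0.23 and 0.09 in the order FBS-free, IGF1, and IGF1 with OSI906, the order used for all sets of 3 values here. Whether it reads the transfected receptor is not known.

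FAM21C, the retromer-binding subunit of the WASH complex, gave answers that differed by probe. The brightest probe, A_23_P376799 (transcript NM_015262), had normalised log2 levels of 11.45, 11.54 and 11.48 in U87WT and of 11.31, 11.31 and 11.50 in U87Mut. Its log2 ratio was therefore small on every array, at 0.14, 0.23 and -0.03. Probe A_33_P3256894, designed on transcript NM_001169107, read 2286, 1412 and 1584 in raw Cy5 brightness and 1140, 972 and 926 in raw Cy3 brightness. After normalisation its log2 ratio was 1.03, -0.05 and 0.65, that is, 2.04-fold higher in U87WT in FBS-free medium, equal within the noise after IGF1, and 1.57-fold higher with OSI906 added. The log2 level in U87WT was 11.04 in FBS-free medium and 10.29 on the IGF1 array, while in U87Mut it was 10.02 and 10.33.

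The other FAM21C probes also had their lowest ratio on the IGF1 array. A_33_P3279124, from the same transcript, gave log2 ratios of 0.36, 0.04 and 0.35. A_21_P0010870, from transcript NM_001169106, gave 0.35, 0.04 and 0.69, with levels of 8.33, 8.18 and 8.86 in U87WT and of 7.98, 8.14 and 8.16 in U87Mut. On the brightest probe, in contrast, the IGF1 array gave the highest ratio. The gap between the highest and the lowest of the 4 probes was 0.89, 0.27 and 0.72. There were 156 genes with 4 bright probes, of which 151, 148 and 156 had a value for all 4 on the respective array. Among these the median gap was 0.36, 0.38 and 0.37, and a gap at least as wide was found in 3.97%, 70.9% and 13.5% of them.

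**Figure D1:**
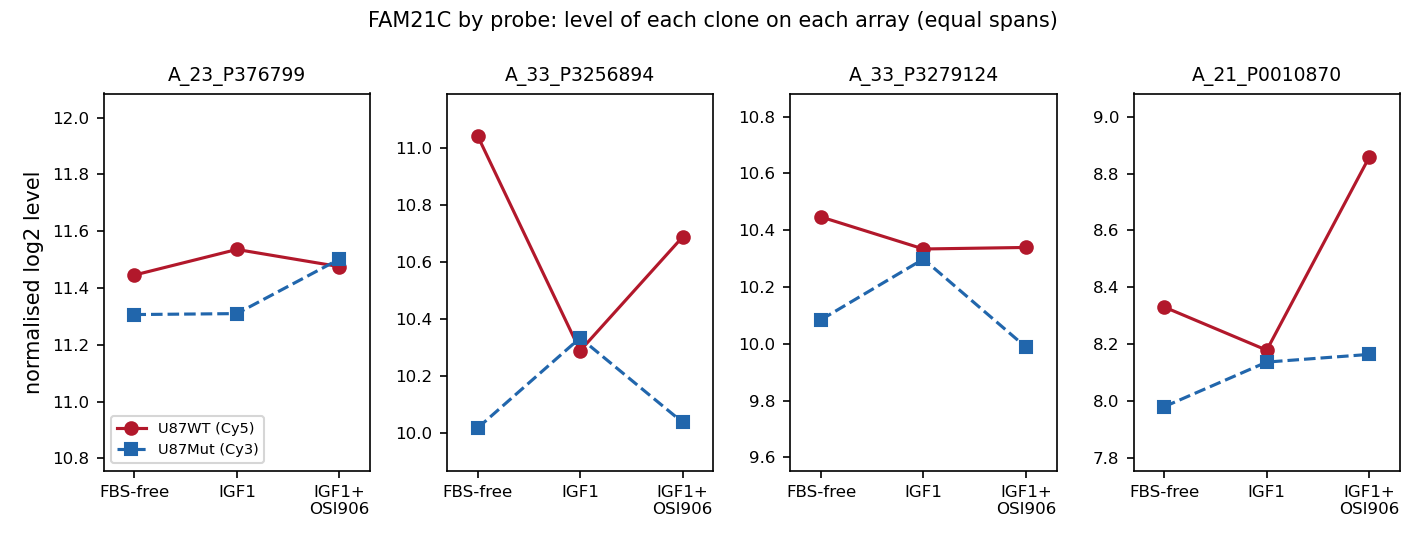
Normalised log2 level (vertical axis, equal span in each panel) of the 4 FAM21C probes in U87WT (red circles, Cy5) and U87Mut (blue squares, Cy3) on the FBS-free, IGF1 and IGF1 with OSI906 arrays, 1 array per point. The clones lie 0.03 to 0.23 apart in A_23_P376799, while in A_33_P3256894 they are 1.03 apart in FBS-free medium and meet after IGF1.

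The mean log2 ratio over the 3 arrays was 0.11 ± 0.06 (SE, adjusted p = 0.371 by limma) for A_23_P376799 and 0.54 ± 0.21 (adjusted p = 0.229 by limma) for A_33_P3256894. It was 0.25 ± 0.08 for A_33_P3279124 (adjusted p = 0.151 by limma) and 0.36 ± 0.13 for A_21_P0010870 (adjusted p = 0.196 by limma). No FAM21C probe passed. The 3 arrays are different conditions, so a response to treatment adds to the error of this test. The IGF1 array gave each of the 3 dimmer probes its lowest ratio, so leaving it out could only raise their means. Without the IGF1 array these 3 probes passed, the only 1 of 12 alternatives in which each did. Their means were 0.84, 0.36 and 0.52 with adjusted p of 0.00954, 0.0142 and 0.0269 by limma in the order A_33_P3256894, A_33_P3279124 and A_21_P0010870. That fit called 6284 probes in all, against 5105 with the IGF1 array in it. The IGF1 values also depend on the background fit, since with all spots in it the 4 probes read 0.02, -0.38, -0.31 and -0.11 on that array. FAM21C belongs to a family of near-identical copies. No probe of FAM21A was named here, and a FAM21C probe may also bind its transcripts.

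**Figure D2:**
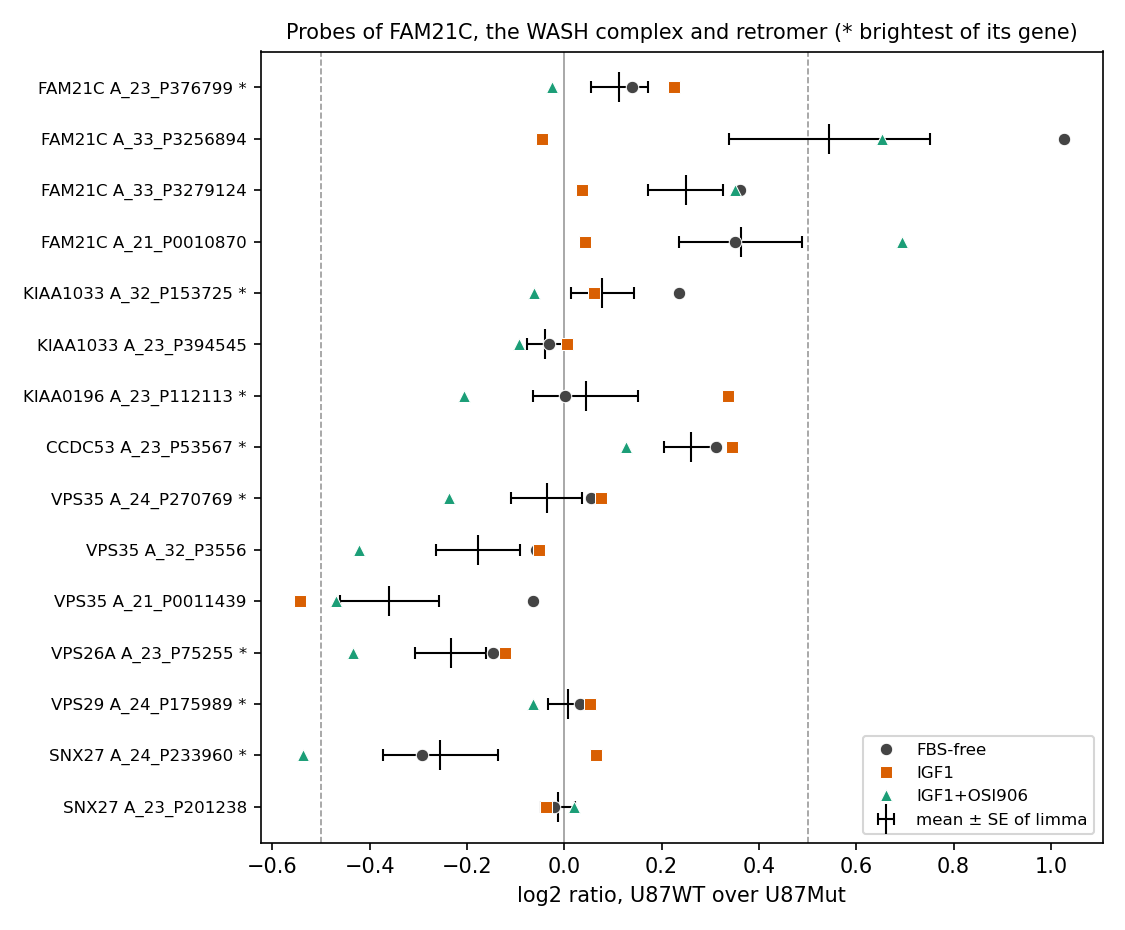
Log2 ratio of U87WT over U87Mut (horizontal axis) of the 15 member probes on the FBS-free (circles), IGF1 (squares) and IGF1 with OSI906 (triangles) arrays, with the mean and SE of the limma fit in black and dashed lines at 0.5 and -0.5. The 4 probes past 0.5 on an array are A_33_P3256894 and A_21_P0010870 of FAM21C, A_21_P0011439 of VPS35 and A_24_P233960 of SNX27.

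The other 3 WASH subunits among the members, CCDC53, KIAA1033 and KIAA0196, had ratios between -0.21 and 0.34. CCDC53, a small coiled-coil subunit, was higher in U87WT on all arrays, with levels of 11.71, 11.78 and 11.67 against 11.40, 11.43 and 11.54 and log2 ratios of 0.31, 0.34 and 0.13. These levels come from 3 different conditions, so the clones are compared by the ratio within each array. The mean of CCDC53 was 0.26 ± 0.05 (adjusted p = 0.0600 by limma), the lowest adjusted p of any member probe, and it missed the threshold. When the fit was restricted to bright probes the same mean had an adjusted p of 0.0480 by limma. KIAA1033, the large scaffold also called SWIP, gave 0.24, 0.06 and -0.06 with its brighter probe A_32_P153725 and -0.03, 0.01 and -0.09 with A_23_P394545. These means were 0.08 and -0.04, with adjusted p of 0.592 and 0.649 by limma.

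KIAA0196 encodes strumpellin, the scaffold subunit mutated in a hereditary spastic paraplegia. Its probe A_23_P112113 is printed 10 times on each array, 8 of which were used in FBS-free medium, and gave 0.00, 0.34 and -0.21. The repeated spots had SDs of 0.0396, 0.0244 and 0.0382, so these differences between arrays were wider than the spread between spots. Spots of an array share an RNA sample, and the SD between them says nothing of cultures. The ratios also depend on the processing. Over the main setting and 10 alternatives they ranged from -0.24 to 0.04, from 0.07 to 0.83 and from -0.21 to -0.09. The mean was 0.04 ± 0.11 (adjusted p = 0.873 by limma).

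Retromer's own subunits were near 0 without the inhibitor by their brightest probes. VPS35, the core on which the trimer is built, gave 0.05, 0.07 and -0.24 with its brightest probe A_24_P270769 and -0.06, -0.05 and -0.42 with A_32_P3556. The dimmest VPS35 probe, A_21_P0011439, gave -0.06, -0.54 and -0.47, so that the probes were 0.62 apart after IGF1. All 3 probes were below 0 after IGF1 with OSI906. Their means were -0.04, -0.18 and -0.36, with adjusted p of 0.842, 0.340 and 0.126 by limma. Without the FBS-free array, on which its ratio was nearest to 0, A_21_P0011439 passed with a mean of -0.51 (adjusted p = 0.0348 by limma). Leaving out that array could only move the mean away from 0.

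VPS26A, the arrestin-like arm of retromer that contacts cargo and sorting nexins, was lower in U87WT on every array, at -0.15, -0.12 and -0.43. Its levels were 10.51, 10.67 and 10.32 in U87WT and 10.66, 10.79 and 10.75 in U87Mut. They overlapped only between different conditions, U87WT after IGF1 (10.67) and U87Mut in FBS-free medium (10.66). The mean was -0.23 ± 0.07 (adjusted p = 0.155 by limma). VPS29, the subunit that binds regulators such as TBC1D5, gave 0.03, 0.05 and -0.07, all within 1 SD of a single ratio from 0 (mean 0.01 ± 0.04, adjusted p = 0.950 by limma). SNX27 gave -0.29, 0.06 and -0.54 with its brighter probe A_24_P233960, or 1.45-fold lower in U87WT after IGF1 with OSI906. The other SNX27 probe, A_23_P201238, gave -0.02, -0.04 and 0.02. Their means were -0.25 ± 0.12 (adjusted p = 0.320 by limma) and -0.01 ± 0.03 (adjusted p = 0.881 by limma). Without the IGF1 array, the only one on which it was above 0, the mean of A_24_P233960 was -0.41 (adjusted p = 0.0277 by limma). Leaving out that array could only lower the mean.

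Across the members, limma with Benjamini-Hochberg adjustment over all probes called 0 of 15 probes, while it called 8.77% of all probes (2601 higher and 2504 lower in U87WT), 17.9% of bright probes and 14.2% of genes by their brightest probe. With all spots in the background fit the calls were 155 higher and 520 lower. At an unadjusted p under 0.05 there were 6 of 15 member probes, namely 3 of FAM21C and those of CCDC53, VPS26A and VPS35 (A_21_P0011439), against 21.4% of all probes and 39.8% of bright probes, to which the members belong, so that the share of the members was near that of bright probes. By size, 4 of 15 member probes were past 0.5 on at least 1 array, against 15.9% of bright probes, and 1 of 8 genes by its brightest probe (SNX27), against 12.7% of all genes and 20.2% of bright genes, those whose brightest probe is bright. By array, 1, 1 and 3 of the 15 probes were past 0.5, where 9.46%, 8.89% and 8.79% of bright probes were. By the brightest probes, 6, 7 and 1 of the 8 genes were above 0 and their median was 0.04, 0.07 and -0.14, beside a median over all genes of -0.0019, 0.0084 and -0.0037. By these probes CCDC53 was the only gene above 0 after IGF1 with OSI906. The dimmer FAM21C probes gave 0.65, 0.35 and 0.69 on that array, and the dimmer SNX27 probe 0.02, while those of KIAA1033 and VPS35 were below 0.

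The response of each clone was read as the difference between the normalised levels of its dye on 2 arrays. There is 1 sample per clone and condition, so these differences have no replicate error and no test. From FBS-free medium to IGF1, 1 of 15 member probes was past 0.5 in U87WT, where 3.97% of bright probes were, and 0 of 15 in U87Mut, where 2.09% were. That probe was A_33_P3256894 of FAM21C, with -0.76 in U87WT and 0.32 in U87Mut. Over 8 alternatives of the processing the value in U87WT ranged from -1.02 to -0.40. The brightest FAM21C probe differed by 0.09 and 0.00. SNX27 gave 0.42 in U87WT and 0.44 in U87Mut by A_23_P201238, but 0.36 in U87WT and 0.00 in U87Mut by A_24_P233960.

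From IGF1 to IGF1 with OSI906, 2 of 15 probes were past 0.5 in U87WT, beside 6.52% of bright probes, and 0 of 15 in U87Mut, beside 2.44%. FAM21C probe A_21_P0010870 differed by 0.68 in U87WT and 0.03 in U87Mut, while SNX27 probe A_24_P233960 differed by -0.52 and 0.08. KIAA0196, VPS26A and the brightest VPS35 probe gave -0.42, -0.35 and -0.45 in U87WT, against 0.12, -0.04 and -0.14 in U87Mut. The median of the 8 genes was -0.23 in U87WT and 0.09 in U87Mut.

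Between FBS-free medium and IGF1 with OSI906, 3 of 15 probes were past 0.5 in U87WT, beside 3.98% of bright probes, and 0 of 15 in U87Mut, beside 1.12%. VPS35 gave -0.55 in U87WT with both A_24_P270769 and A_32_P3556, against -0.26 and -0.19 in U87Mut. The dimmest VPS35 probe gave -0.21 in U87WT and 0.20 in U87Mut, so that all 3 probes were below 0 in U87WT and the probes differed in sign in U87Mut. FAM21C probe A_21_P0010870 gave 0.53 in U87WT and 0.18 in U87Mut. The contrasts share arrays, so a value that lies apart on 1 array enters 2 of them.

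**Figure D3:**
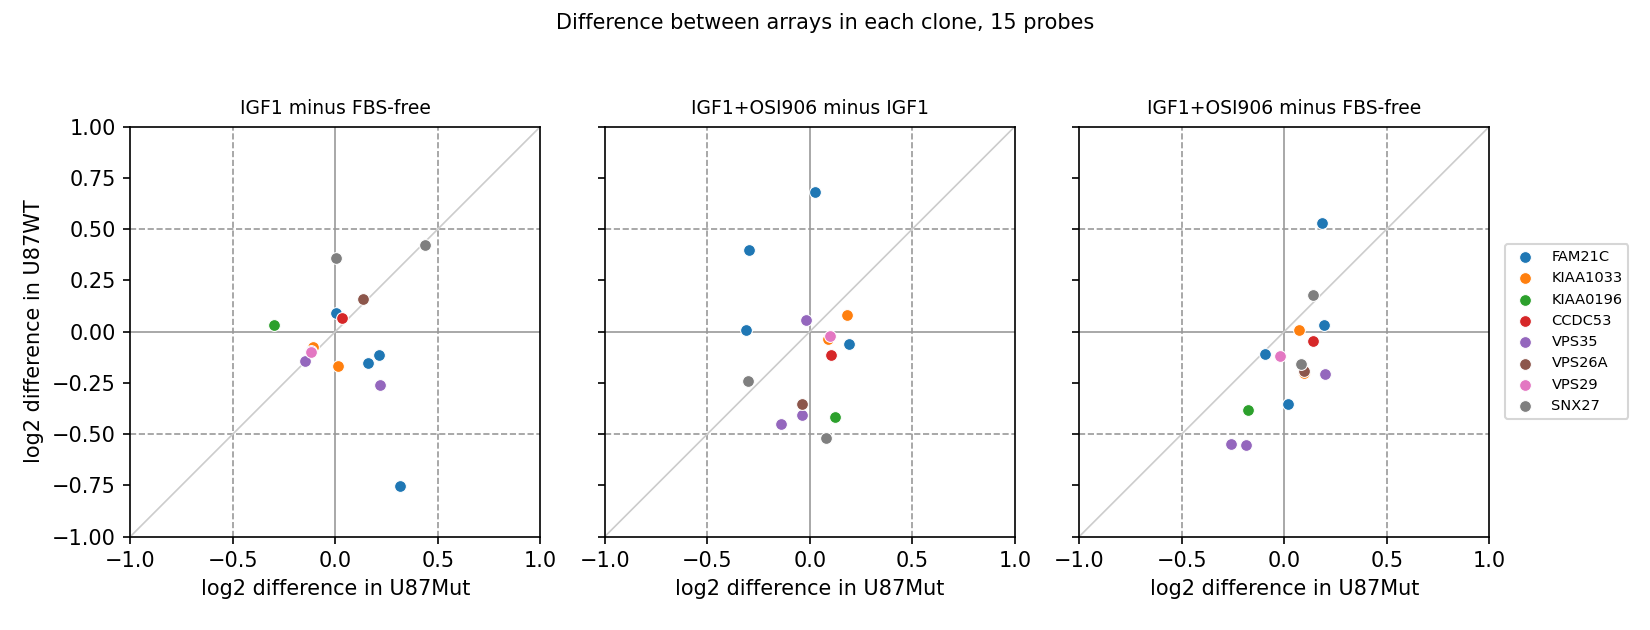
Difference in normalised log2 level between 2 arrays in U87Mut (horizontal axis) and in U87WT (vertical axis) for the 15 member probes, coloured by gene, with dashed lines at 0.5 and -0.5 and the diagonal in grey. Past 0.5 in U87WT lie 1, 2 and 3 probes from left to right, and 0 in U87Mut in each panel.

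Other genes of the route were taken from lists that hold 76 genes, of which 70 had a probe. The 6 without one were FAM21A, FAM21B, FAM21D, WASH2P, WASH3P and SNX6. Of the 70, 66 were bright. Limma called 10 of the 70 (5 higher and 5 lower in U87WT), beside 14.2% of all genes and 22.6% of bright genes. By size, 6 of 70 were past 0.5 on at least 1 array, where 12.7% of all genes and 20.2% of bright genes were. In the list of WASH partners 0 of 5 rose and 1 of 5 fell by limma. In that of retromer, sorting nexins and regulators it was 0 and 1 of 17, in that of retriever and the CCC complex, a related recycling route, 0 and 0 of 16, in that of Arp2/3 and its other activators 2 and 2 of 16, and in that of cargoes 3 and 1 of 16. The list medians on single arrays lay between -0.27 (WASH partners after IGF1 with OSI906) and 0.15 (retriever and CCC complex after IGF1).

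Among these lists the largest mean was that of a cargo. ATP7A, a copper pump that retromer and the WASH complex return from endosomes, had log2 ratios of 1.30, 0.71 and 1.03 (mean 1.01 ± 0.12, adjusted p = 0.0129 by limma), or 2.02-fold higher in U87WT. Its other 3 probes had means of 0.74, 0.48 and 0.15. SORT1, the sorting receptor sortilin, gave 0.58, 0.80 and 0.75 (mean 0.71 ± 0.05, adjusted p = 0.00573 by limma). WLS, the carrier of WNT proteins, gave 0.44, 0.52 and 0.33 (mean 0.43 ± 0.05, adjusted p = 0.0129 by limma) by its brightest probe, but a second probe gave -0.83, 0.62 and 0.06. The SNARE protein VTI1B fell, with a mean of -0.44 (adjusted p = 0.00719 by limma).

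Among the partners, WASH1, the subunit that activates Arp2/3, was lower in U87WT. WASH1, VTI1B, ARPC1A, TRIM27, WASL and WASF3 did not pass 0.5 and are named because of the values seen here. Its log2 levels were 12.04, 12.37 and 12.28 in U87WT and 12.53, 12.85 and 12.60 in U87Mut, and its log2 ratios -0.49, -0.48 and -0.32 (mean -0.43 ± 0.05, adjusted p = 0.0130 by limma). The second probe of WASH1 gave -0.27, -0.25 and -0.36 (adjusted p = 0.0189 by limma). WASH1 has near-identical copies across the genome, which these probes may also bind. The other partners, the capping proteins CAPZA1, CAPZA2 and CAPZB and the WASH-binding FKBP15, did not pass.

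Arp2/3, on which the WASH complex acts, was mixed. Its subunits ARPC1B, at -0.53, -0.40 and -0.30 (mean -0.41, adjusted p = 0.0180 by limma), and ARPC1A (mean -0.31, adjusted p = 0.0308 by limma) fell. The activators WASL (mean 0.27, adjusted p = 0.0377 by limma) and WASF3 (mean 0.23, adjusted p = 0.049999 by limma, just under the threshold), which act mainly at other membranes, rose. TRIM27, an E3 ligase that modifies WASH1, fell (mean -0.26, adjusted p = 0.0279 by limma). SNX3, a retromer adaptor for WLS, was 0.21, 0.71 and 0.01, and ANKRD27, a VPS29-binding effector of RAB proteins, -0.41, -0.15 and -0.56, with adjusted p of 0.306 and 0.0694 by limma.

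Of the 10 calls, 2 were kept with all spots in the background fit (ARPC1A and VTI1B) and 0 in the table of the authors. There were 3 kept without the FBS-free array, 8 without the IGF1 array and 0 without the IGF1 with OSI906 array. All 10 kept their sign in each. With an array left out this could not be otherwise, since the ratios of each gene had the same sign on all 3 arrays. Fewer cells of a kind and less RNA per cell cannot be told apart in such bulk samples. The mesenchymal marker VIM was also higher in U87WT (1.15, 0.29 and 0.77, adjusted p = 0.0681 by limma), as was the epithelial marker EPCAM (0.36, 0.53 and 0.20, adjusted p = 0.0464 by limma), and their part in these results was not tested. Of the 9 sample markers 1 was called.

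**Figure D4:**
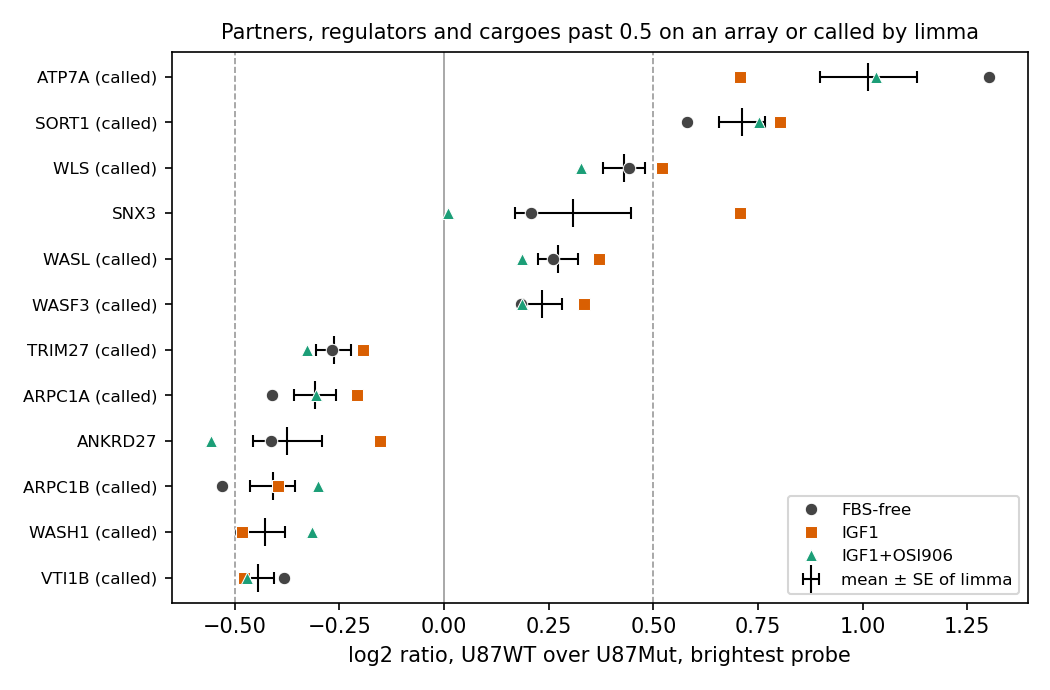
Log2 ratio of U87WT over U87Mut (horizontal axis) of the 12 related genes past 0.5 on an array or called by limma, by their brightest probe, on each array (symbols) with the mean and SE of the limma fit in black. All 3 arrays lie on the same side of 0 for each gene, from VTI1B (mean -0.44) to ATP7A (mean 1.01).

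The genes whose log2 ratios lay nearest to those of the brightest FAM21C probe, by Euclidean distance over the 3 arrays among 15095 bright genes, were NPHP4, ANG, OPRL1, RAB27A and ALDH18A1, at distances of 0.0136, 0.0205, 0.0221, 0.0224 and 0.0236. These distances are below the SD of 1 ratio, and 168 genes lay within 0.1 and 4192 within 0.3, so that the pattern of this probe was a common one. Of the same genes, 1 lay within 0.1 and 11 within 0.3 of A_33_P3256894, 3 and 90 of A_21_P0010870, and 39 and 1045 of A_33_P3279124.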

How the data were processed

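RNA of the U87WT 5 and U87Mut 5 clones was compared on 3 Agilent arrays of 62976 spots, of which 2075 are controls. Per the file headers the deposited intensity values are median spot and local background brightness from Agilent Feature Extraction 12.0.3.1, without normalisation. Per the file headers the same software also gave a log10 ratio of its processed red over green signals, converted to log2 for an alternative. The log2 ratios deposited by the authors were background-corrected and normalised with limma, and their correlation with the ratios below was 0.989, 0.603 and 0.975 by array (0.985, 0.957 and 0.975 with all spots in the background fit). Their medians lay between -0.0074 and -0.0030. Their direction was read from that correlation. They were taken to be on the log2 scale, which a correlation does not show.

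Background was corrected by normexp (offset 50), fitted on each array without the 384, 572 and 5 spots marked as not uniform. With all spots, the fitted SD of the red background of the IGF1 array was 701 in place of 1.32. Arrays were normalised by loess within and Aquantile between them, marked spots (not uniform, or population outliers, 95, 117 and 95) were left out and the spots of a probe averaged (R 4.3.3 with limma 3.58.1). Genes were named through the RefSeq transcript in the GRCh38.p14 table for 34892 of 36770 probes with a transcript, and a gene is given by its brightest probe. U87WT was compared with U87Mut by limma (lmFit, intercept only, and eBayes) over 58201 probes, with Benjamini-Hochberg adjustment at 5%, and by a size limit of 0.5 on each array. Precision is limited by the number of arrays, 1 for each condition. Nothing says that the arrays come from separate cultures, so p-values measure the spread between these 3 arrays. The fit was tested on simulated data without any response to treatment. It called 178 of 200 changed probes in the right direction and 8 others. Probes raised by 1 on the log2 scale had a median ratio of 0.75, so the processing made these simulated ratios smaller. The changed probes were drawn from all bright probes, and how far the ratios of the member probes shrank was not measured.

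The members and lists were chosen with earlier results of these data known. The genes named are all members, list genes that are bright and past 0.5 on at least 1 array, the sample markers and the 5 genes nearest to the brightest FAM21C probe. Any other gene was named after its values were seen. Alternatives were other background corrections and fits, the processed signals, median or scale normalisation, the table of the authors, bright probes alone, averaging the probes of a gene, and omitting each array in turn. The same alternatives for single FAM21C probes, called list genes, counts of member probes and responses by probe were chosen after seeing the data. The only sequences used were the promoter windows of the RefSeq table.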

Additional observations from a re-analysis of the deposited data

Results flagged for a closer look

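In 4 instances a member probe differed in opposite directions between the clones from 1 array to another, by more than 0.5 in all. Each rests on 1 array per condition, and the difference was not tested. How many probes outside the members did the same was not counted, so whether 4 is an unusual number is not known. For FAM21C probe A_33_P3256894 the difference from FBS-free medium to IGF1 was -1.07 on the log2 scale in U87WT relative to U87Mut (-0.76 in U87WT and 0.32 in U87Mut). For the same probe the difference from IGF1 to IGF1 with OSI906 was 0.70 (0.40 and -0.30). For KIAA0196 probe A_23_P112113 that difference was -0.54 (-0.42 and 0.12). For SNX27 probe A_24_P233960 it was -0.60 (-0.52 and 0.08). The 3 values from IGF1 to OSI906 and the first one all use the IGF1 array, whose ratios move with the background fit. In the other FAM21C probes the difference from FBS-free medium to IGF1 was 0.09 in U87WT and 0.00 in U87Mut for A_23_P376799, -0.11 and 0.21 for A_33_P3279124, and -0.15 and 0.16 for A_21_P0010870.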

How the results depend on the processing

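The count of limma calls over all probes was 5105 and was 675 with all spots in the background fit, 695 with a normexp offset of 0, 785 in the table of the authors, and 0 both with the signals processed by the scanner software and with median normalisation within arrays, where 11071 and 5182 probes had an unadjusted p under 0.05 by limma. Leaving out each array gave 737 (without the IGF1 with OSI906 array) to 6284 (without the IGF1 array), and 1923 without the FBS-free array. Member probes called by limma, 0 as reported, were 1 (CCDC53) among bright probes alone and 0 to 4 when an array was left out, with 4 without the IGF1 array (SNX27 and 3 of FAM21C) and 1 without the FBS-free array (VPS35). The 6 member probes at an unadjusted p under 0.05 by limma became 1 with an offset of 0, 1 with the processed signals and 3 with median normalisation. Their number was 3 to 7 when an array was left out. The 4 member probes past 0.5 became 8 with median normalisation and 2 to 4 when an array was left out, with 2 without the IGF1 with OSI906 array. The 1 member gene past 0.5 became 6 with median normalisation, 0 by the mean of all probes, and 0 to 1 when an array was left out. The 6 list genes past 0.5 became 11 with all spots in the fit, 13 with an offset of 0, 13 with the processed signals, 48 with median normalisation and 12 in the table of the authors. Median normalisation put the middle of bright probes at -0.13, 0.20 and 0.05 on the 3 arrays.

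Means that did not pass changed sign as follows. That of KIAA0196 (0.044) was -0.040 with all spots and -0.040 in the table of the authors, and -0.10 to 0.17 when an array was left out. That of VPS35 (-0.036) was 0.00076 with all spots, 0.20 with median normalisation, 0.020 in the table of the authors and -0.092 to 0.065 when an array was left out. That of VPS29 (0.0071) was -0.12 with all spots, -0.13 in the table of the authors, and -0.016 to 0.043 when an array was left out. That of KIAA1033 (0.08) was -0.0012 to 0.15 when an array was left out. The causes were not tested. The brightest FAM21C probe kept its sign in 13 of 13 alternatives and passed in 0, while CCDC53 kept its sign in 13 of 13 and passed in 1. The limma fit is itself paired, since each of its 3 ratios sets both clones against each other on 1 array. All member probes were bright, a mark that does not mean a high level. Whether signal over background limited them was not tested.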
